A study of Xenopus laevis with 4 samples.

Results

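Mitochondrial ribosomal protein genes were followed in Xenopus laevis gastrulae that had received morpholinos against xSGK1, the frog form of the serine/threonine kinase SGK1, or a control morpholino. The genes are those whose symbol in the platform's probe-to-gene table begins with mrpl or mrps and a number, with 1 gene per probe set and a mean signal of at least 100 over the 4 arrays. Where a gene had several probe sets the one with the highest signal stands for it. This gave 34 genes of 5201 single-gene symbols above that signal, 22 of them mrpl genes and 12 mrps genes. A further 4 genes with such symbols lay below it.

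Mitochondria translate the few proteins encoded in their own DNA, all of them core subunits of the respiratory chain and ATP synthase in vertebrates, on ribosomes of their own. The proteins of these ribosomes are encoded in the nucleus, made in the cytosol and imported. Some have counterparts in bacterial ribosomes and others are found only in mitochondria. The large subunit, named mrpl here, forms the peptide bond, and the small subunit, named mrps, holds and decodes the mRNA. In early frog embryos mitochondria are inherited from the egg.

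Both groups were whole embryos from eggs fertilised in vitro. The control group carried 80 ng of control morpholino, and the xSGK1 group 40 ng of each of 2 xSGK1 morpholinos, delivered radially at the 4-cell stage. All embryos were collected at stage 12, late in gastrulation. The pair of injections was run in 2 separate experiments with an array for each, which makes n = 2 per group and limits how precise any value can be. The labels name no strain or number of embryos, and no untouched embryos were analysed here, so whatever injection itself does is shared by both groups. Morpholinos block translation or splicing of their target. The sgk1.L transcript, whose level is no check of the knockdown, had signals of 2321 and 3071 in experiment 1 (control, then xSGK1) and of 2840 and 3301 in experiment 2. In whole embryos, fewer cells of a type and less RNA per cell cannot be told apart.

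The 4 arrays had median signals between 161 and 174. The deposited values had been scaled per array, so alike overall signal is no check of the arrays. Of 12 gastrula marker names listed to check the stage, 9 were measured, in 14 gene copies, tbxt.S of the mesoderm (2580 to 4018) and sox17a.S of the endoderm (538 to 670) among them. Of 8 names for later tissues 1 was measured, the muscle creatine kinase gene ckm.L (156 to 199). Measured here and below means a single-gene probe set with that symbol and a mean signal of at least 100. The other names may be dimmer or lack a probe set with that symbol. Some technical and developmental readings differed between arrays. The 3' to 5' signal ratio of beta-actin, a measure of RNA integrity and labelling, was 3.11 and 3.38 in experiment 1 and 2.24 and 2.06 in experiment 2 (control, then xSGK1). That of GAPDH was higher and closer between the experiments, at 16.6 and 17.7, then 16.4 and 15.6. The summed signal of 11 maternal gene copies was 6552 and 10145 in experiment 1 and 9745 and 14805 in experiment 2. That of the gastrula markers was 20505 and 17991, then 19302 and 13944. The 2 copies of the epidermal keratin gene krt12.4 weigh heavily in this sum. They gave 3923 and 1402, then 974 and 75.4 (.L), and 2173 and 713, then 541 and 59.5 (.S). Of the 14 copies 0 were higher and 6 lower with xSGK1 morpholinos in both experiments, and 8 differed in sign. From experiment 1 to 2, 4 were higher and 4 lower with both injections, and 6 differed in sign. The part of these readings in the differences below was not tested.

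The values are signal intensities as deposited. Signals of different probe sets depend on their probes and do not rank transcripts by abundance, so each gene is compared only with itself. The mean signals of the 34 genes ran from 152 to 1720 with a median of 507. A log2 change is that of signal + 16. It was tested with limma, a linear model that shares the estimate of spread across probe sets, over 9251 probe sets with Benjamini-Hochberg adjustment and a threshold of 0.05. A fit with the injection alone counts the difference between experiments as spread. A second fit holds the experiment as a block and so measures the injection difference against its variation between the 2 experiments.

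**Figure D1:**
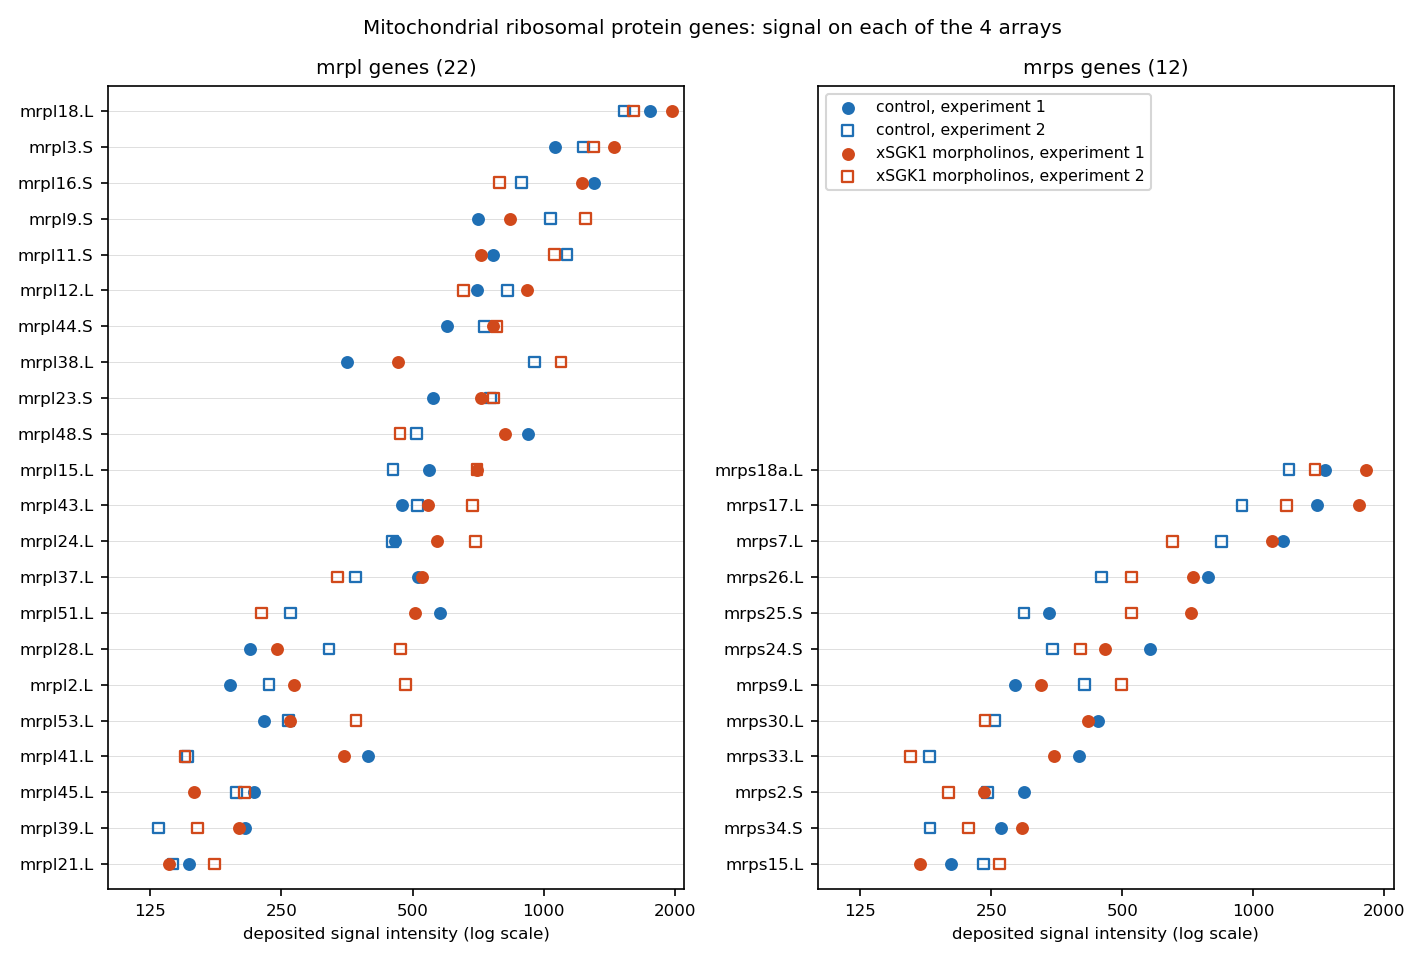
Signal of each mitochondrial ribosomal protein gene on the 4 arrays (horizontal log axis, deposited intensity), mrpl genes on the left and mrps genes on the right, ordered by mean signal. Blue marks control and red xSGK1 arrays, filled circles experiment 1 and open squares experiment 2. For mrpl38.L, mrpl41.L, mrpl51.L and mrps33.L the circles and the squares stand apart, and for mrps25.S the colours do.

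Most of these genes did not pass the threshold for the injection, which does not show that they were unchanged. With the experiment held as a block, 1 of 34 rose after xSGK1 morpholinos, mrps25.S, and 0 fell. Across all 9251 probe sets that fit called 4.09% higher and 3.91% lower, so the members' shares (2.94% and 0%) were not above the background. With arrays scaled to equal medians it called 456 probe sets higher and 719 lower, in place of 378 and 362, and the same 1 member. In the fit without the block limma called 0 probe sets (0%) and 0 members. At an unadjusted p under 0.05 that fit named 3.61% of the probe sets and 1 member, and the blocked fit 30.2% and 5 members. The difference from the background share was not tested.

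The gene mrps25.S encodes a small-subunit protein with no bacterial counterpart. Its control signals were 339 in experiment 1 and 297 in experiment 2, and those with xSGK1 morpholinos 720 and 526. The means were 318 ± 29.3 (SD, n = 2) and 623 ± 137 (SD, n = 2). Both xSGK1 arrays lay above both controls, by ratios of 2.13 in experiment 1 and 1.77 in experiment 2. The log2 change was 0.92 ± 0.16 SE with a 95% interval of 0.52 to 1.32 (limma with the block, adjusted p = 0.0315). Without the block the adjusted p was 0.999, so the call rests on treating the arrays of 1 experiment as a pair. Between the experiments mrps25.S differed by -0.31, which did not pass (adjusted p = 0.172). The same blocked fit called 4.09% of all probe sets higher and 3.91% lower. Of 11 maternal gene copies it called 6 higher with xSGK1 morpholinos and 0 lower, with a median log2 change of 0.75. Of 14 gastrula marker copies 2 fell, those of the epidermal keratin krt12.4. The part of these marker genes in the result was not tested.

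The other 33 members passed in neither fit. Their xSGK1 to control ratios ran from 0.729 to 1.41 in experiment 1 and from 0.771 to 2.06 in experiment 2, and their adjusted p with the block from 0.0749 to 0.947. The 95% interval of the blocked fit lay inside a 2-fold change either way for 32 of the 33. The exception was mrpl2.L, whose interval reached past a 2-fold rise. These intervals had half-widths of 0.29 to 0.49 on the log2 scale, so changes smaller than that were not resolved.

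Next in size came the changes of genes for large-subunit proteins. The gene mrpl2.L encodes a protein that lies beside the peptidyl transferase centre, where the peptide bond is made. Its signals were 190 and 234 in the controls and 268 and 482 with xSGK1 morpholinos (log2 change 0.73 ± 0.20 SE, interval 0.24 to 1.21, limma adjusted p = 0.0749 with the block). Both xSGK1 arrays were above both controls, as for 16.3% of all probe sets, with a ratio of 1.41 in experiment 1 and 2.06 in experiment 2.

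The gene mrpl15.L, whose protein has a bacterial counterpart, gave 546 and 451 in controls and 705 and 703 with xSGK1 morpholinos (log2 change 0.49 ± 0.16 SE, adjusted p = 0.103 with the block). The gene mrpl24.L encodes a protein at the exit of the tunnel through which the new chain leaves. It gave 457 and 450 in controls and 568 and 697 with xSGK1 morpholinos (0.46 ± 0.16 SE, adjusted p = 0.125). In both genes the groups did not overlap, as for 16.3% of all probe sets in this direction. The 2 control arrays of mrpl24.L differed by less than the 2 xSGK1 arrays.

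Similar but smaller differences were seen for mrpl28.L, mrpl53.L and mrpl43.L. The gene mrpl28.L, with a bacterial counterpart, measured 212 and 321 in controls and 244 and 469 with xSGK1 morpholinos, and these groups overlapped. The mitochondria-specific gene mrpl53.L measured 228 and 260 against 261 and 371. The likewise mitochondria-specific mrpl43.L measured 472 and 514 against 542 and 687. The log2 changes of the 3 genes were 0.36, 0.34 and 0.30, and for each the ratio was lower in experiment 1 (1.15, 1.15 and 1.15) than in experiment 2 (1.46, 1.43 and 1.34).

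Among the remaining mrps genes named by size of change, mrps17.L, whose bacterial counterpart binds the small-subunit rRNA, gave 1398 and 941 in controls and 1750 and 1192 with xSGK1 morpholinos (log2 change 0.33 ± 0.13 SE, adjusted p = 0.149 with the block). It was higher by log2 values of 0.32 and 0.34 in the 2 experiments, while the signal itself was lower in experiment 2 with both injections. The gene mrps18a.L gave 1460 and 1207 against 1815 and 1384 (0.25), and mrps9.L 283 and 409 against 326 and 499 (0.23). The groups of all 3 genes overlapped, and for each the experiments differed by more than the injections.

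The lowest injection log2 changes belonged to mrps2.S and mrps7.L, both with bacterial counterparts. The gene mrps2.S gave 298 and 245 in controls and 241 and 200 after xSGK1 morpholinos (log2 change -0.28 ± 0.17 SE, adjusted p = 0.306 with the block). It was the 1 member with both xSGK1 arrays below both controls, which held for 13.7% of all probe sets. The gene mrps7.L gave 1171 and 845 against 1104 and 651 (-0.23, adjusted p = 0.347). A second, dimmer mrps7.L probe set had a log2 change of -0.39 (adjusted p = 0.189), so both probe sets pointed down without passing.

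**Figure D2:**
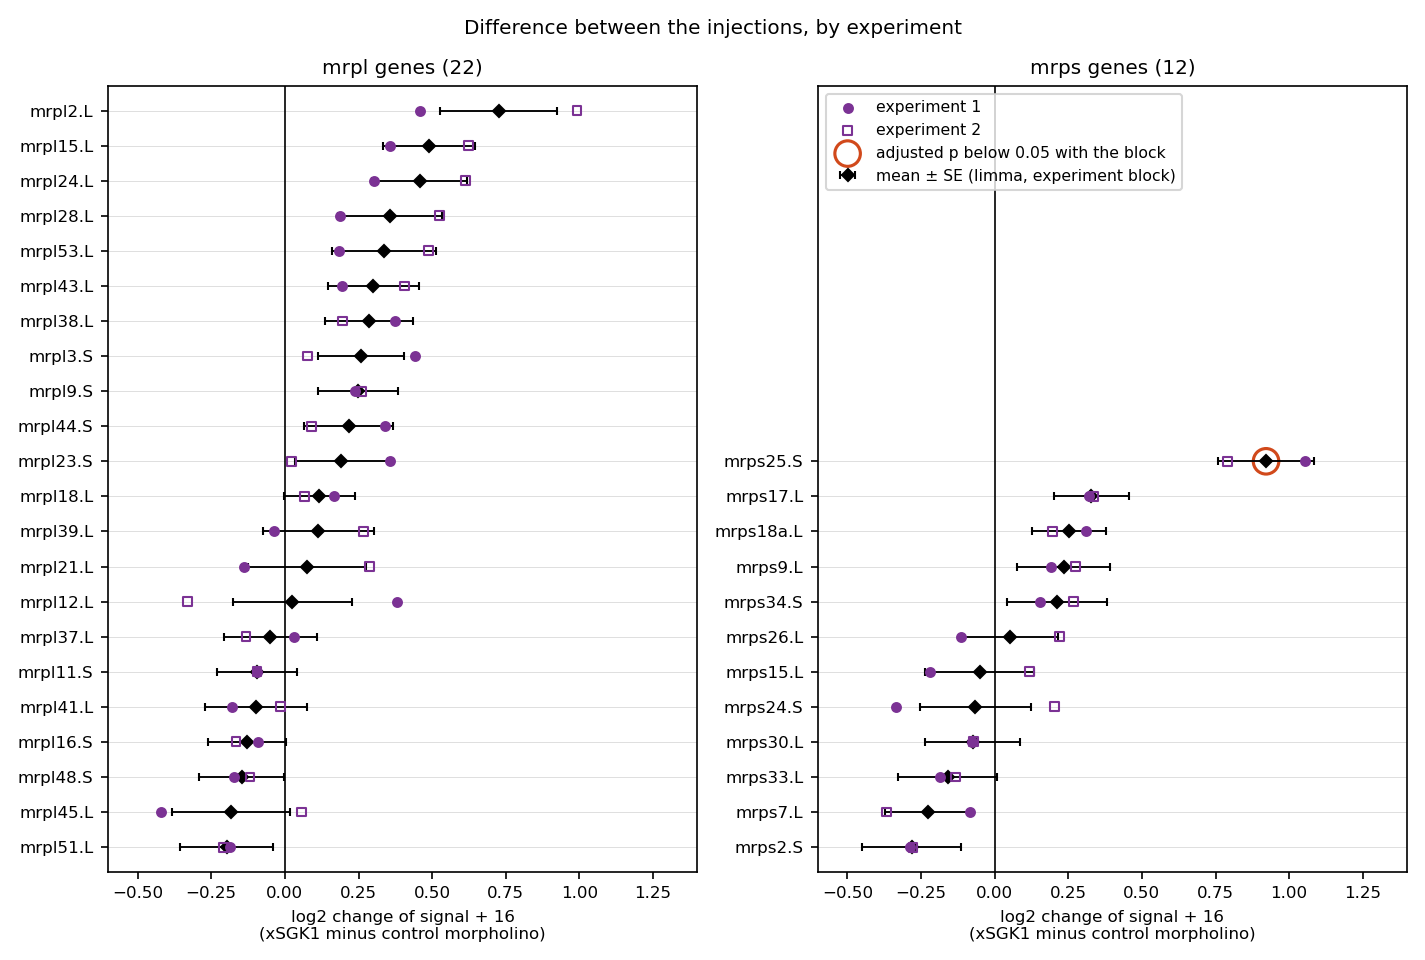
Injection difference of each gene (horizontal axis, log2 change of signal + 16, xSGK1 minus control), mrpl genes left and mrps genes right. Purple marks give each experiment, black diamonds the mean with its SE from the blocked limma fit, and the ring the 1 gene past the threshold, mrps25.S at 0.92; mrpl2.L follows at 0.73 and mrps2.S is lowest at -0.28.

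By direction, 17 members were higher and 9 lower with xSGK1 morpholinos in both experiments, and 8 differed in sign. Over all probe sets 40.7% were higher and 31.9% lower in both experiments. Both xSGK1 arrays exceeded both controls for 8 members (23.5%, against a background of 16.3%) and fell short of both for 1 (2.94%, against 13.7%). The median log2 change of the 34 genes was 0.12, and 0.16 in each experiment, beside 0.04 over all probe sets. With arrays scaled to equal medians it was 0.05, where that of all probe sets was -0.03.

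Of the 8 higher members with groups apart, 7 were mrpl genes (mrpl2.L, mrpl3.S, mrpl15.L, mrpl24.L, mrpl43.L, mrpl44.S and mrpl53.L) and the other was mrps25.S. These were 31.8% of the 22 mrpl genes and 8.33% of the 12 mrps genes, beside 16.3% of all probe sets. The gene mrpl3.S, whose protein reaches the peptidyl transferase centre, gave 1062 and 1234 in controls and 1448 and 1301 with xSGK1 morpholinos, so that most of its difference came from experiment 1. The mrpl genes had a median change of 0.15, with 0.19 in experiment 1 and 0.08 in experiment 2. The mrps genes had a median of 0.00, with -0.08 and 0.20, and it was -0.05 to -0.07 with the other 3 scalings tried. The difference between subunits was not tested, and that between the experiments within the mrps genes exceeded it. In human structures the products of mrps18a and mrps30 sit in the large subunit in spite of their names. Moving both to the large subunit left the injection medians at 0.15 and 0.00.

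The mrpl12 and mrpl11 proteins form or carry the stalk that recruits translation factors. The gene mrpl12.L gave 702 and 827 in controls and 918 and 654 with xSGK1 morpholinos, so it was higher in experiment 1 and lower in experiment 2 (log2 changes 0.38 and -0.33). The gene mrpl11.S gave 767 and 1132 against 718 and 1059. Of 3 exit-tunnel genes measured, mrpl23.S gave 556 and 755 against 717 and 768, and mrpl45.L, whose protein anchors the ribosome to the inner membrane, 216 and 197 against 158 and 206. None of these passed for the injection in either fit.

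The experiments differed more than the injections did. With the injection as a term in the limma fit, 15 of 34 members differed between experiment 2 and experiment 1 at an adjusted p of 0.05, 5 higher and 10 lower in experiment 2. Over all probe sets 40.8% were called (20.9% higher, 19.9% lower), so the members' share of 44.1% was near the background and is no result about these genes as a class. Without the injection term 0 members and 58 probe sets were called, and 14 members had an unadjusted p under 0.05. The embryo batch, the RNA and the labelling of each experiment cannot be told apart.

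The largest rise was that of mrpl38.L, whose protein belongs to the central protuberance, the crown of the large subunit. It measured 354 with control and 463 with xSGK1 morpholinos in experiment 1, and 954 and 1096 in experiment 2. The ratio of experiment 2 to experiment 1 was 2.70 in controls and 2.37 in xSGK1 embryos (log2 difference 1.30 ± 0.15 SE, limma adjusted p = 0.00362). Its injection change of 0.28 did not pass.

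Another central protuberance gene, mrpl48.S, fell by 0.81 on the log2 scale (adjusted p = 0.00897). It measured 923 with control and 816 with xSGK1 morpholinos in experiment 1, and 510 and 468 in experiment 2. The third measured gene of this structure, mrpl18.L, gave 1758 and 1977, then 1536 and 1609, and did not pass (-0.24, adjusted p = 0.152). The 3 genes thus did not move as a unit between the experiments.

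The largest falls from experiment 1 to experiment 2 were those of genes for mitochondria-specific proteins. The gene mrpl41.L measured 396 and 348 in experiment 1 and 152 and 150 in experiment 2, and fell by 1.21 (adjusted p = 0.00519). Human MRPL41 has also been described as a BCL2-binding protein. The gene mrpl51.L measured 578 and 507, then 262 and 225, and fell by 1.11 (adjusted p = 0.00521). The gene mrps33.L measured 398 and 348, then 181 and 163, and fell by 1.05 (adjusted p = 0.00668). In all 3, both arrays of experiment 2 were below both of experiment 1, by similar ratios with either injection, and the injections differed by at most -0.20 on the log2 scale.

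The gene mrps30.L, whose chicken counterpart was described as a pro-apoptotic protein, measured 441 and 417 in experiment 1 and 255 and 242 in experiment 2, and fell by 0.75 (adjusted p = 0.0152). Its injection ratios were 0.947 and 0.948. The gene mrps26.L measured 786 and 725, then 448 and 524, and fell by 0.62 (adjusted p = 0.0265). The fall of mrps7.L was 0.61, that of mrpl16.S 0.58 and that of mrps17.L 0.56. The second, dimmer mrps7.L probe set had a difference of -0.41, which did not pass (limma adjusted p = 0.101). The gene mrpl16.S encodes another protein near the peptidyl transferase centre and measured 1304 and 1223, then 890 and 792. The tenth gene that fell was mrpl37.L (-0.54), chosen here after its values were seen.

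Besides mrpl38.L, those that rose in experiment 2 were mrpl28.L by 0.73, mrpl9.S by 0.56, mrpl11.S by 0.55 and mrps9.L by 0.55. The gene mrpl9.S measured 708 and 837 in experiment 1 and 1039 and 1248 in experiment 2 (adjusted p = 0.0221). Of the 3 probe sets annotated to mrpl11.S, a second gave 485 and 426, then 501 and 532, a difference of 0.18 that did not pass (adjusted p = 0.406), and the third lay below the signal filter with a difference of -0.69. The rise of mrpl11.S therefore rests on a probe set whose name carries a suffix for cross-hybridising probes.

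**Figure D3:**
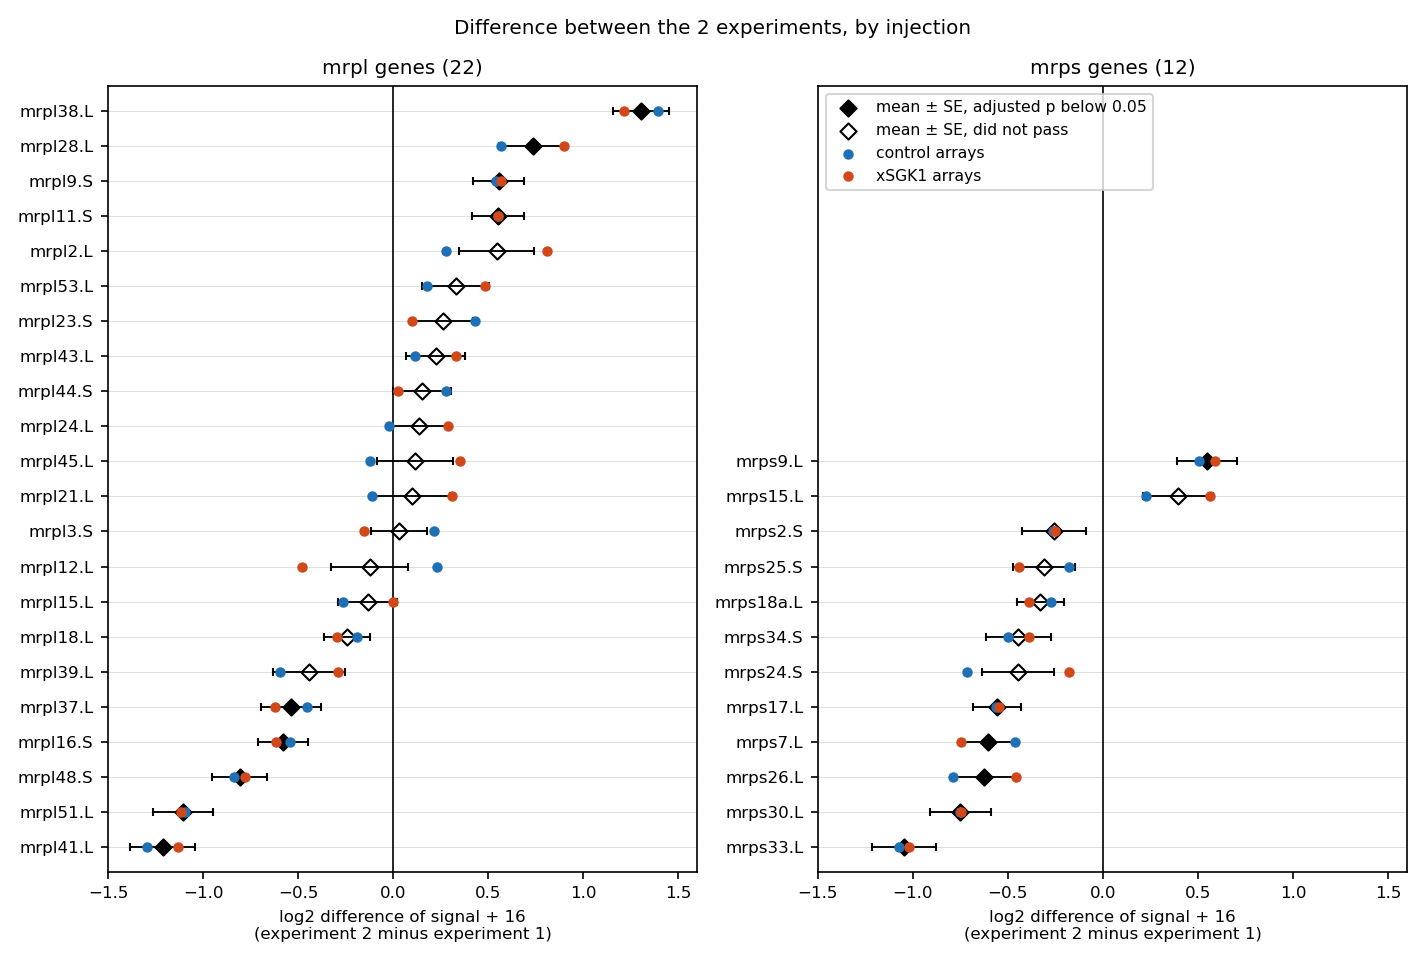
Experiment difference of each gene (horizontal axis, log2 difference of signal + 16, experiment 2 minus experiment 1), mrpl genes left and mrps genes right. Black diamonds with SE come from the limma fit with the injection as a term, filled where the adjusted p was below 0.05 (15 genes), and coloured points give the control and xSGK1 arrays; the values run from 1.30 for mrpl38.L to -1.21 for mrpl41.L.

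Both arrays of experiment 2 exceeded both of experiment 1 for 7 members (20.6%, background 31.3%) and lay below for 15 (44.1%, background 30.2%). By direction with both injections 11 members were higher (32.4%, background 41.5%) and 18 lower (52.9%, background 39.9%). The median difference was -0.19, beside 0.01 over all probe sets. In the mrps genes it was -0.45, with -0.48 in controls and -0.41 with xSGK1 morpholinos, and 5 of 12 fell (41.7%) and 1 rose (8.33%), beside 19.9% and 20.9% of all probe sets. In the mrpl genes it was 0.11, with 0.05 and 0.06 in the 2 injections, and 5 of 22 fell (22.7%) and 4 rose (18.2%). By kind, the 18 genes with a bacterial counterpart had a median of 0.06, with 4 rises and 3 falls, and the 16 mitochondria-specific genes one of -0.44, with 1 rise and 7 falls, where again 20.9% of all probe sets rose and 19.9% fell. Of the 7, 5 belong to the large subunit by human structures and 2 to the small one. The kinds follow lists made for the human mitochondrial ribosome, in which mrps18a is counted as mitochondria-specific. These divisions overlap and none was tested against the other.

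The absolute experiment difference exceeded the absolute injection change in 24 of 34 members (70.6%), beside 65.8% of all probe sets. A 2-fold mean difference between experiments was reached by 4 members, mrpl38.L, mrpl41.L, mrpl51.L and mrps33.L (11.8%, background 13.0%). A 2-fold mean change between injections was reached by 0 (background 4.33%). The share for the experiments was near the background and is no result about these genes. By genome copy, 23 members were .L and 11 were .S genes, the homeologs left by the genome duplication of this species, and no gene name had both copies above the signal minimum. The median injection change was 0.11 for .L and 0.19 for .S genes.

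The members nearest the signal minimum were mrpl21.L with a mean of 152 (138 to 175), mrpl39.L with 174 (131 to 206) and mrpl45.L with 194 (158 to 216). The nearest below were mrps30.S with a mean of 88.5 (62.5 to 103), mrps35.L with 80.2 (51.6 to 101) and mrpl41.S with 75.2 (38.1 to 132). The lowest was mrps11.L with 25.2. Homeologs of measured members could thus be set beside them only at low signal. The log2 difference of mrpl41.S between experiments was -0.87, and that of mrps30.S was 0.27, against -1.21 for mrpl41.L and -0.75 for mrps30.L.

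The 8 members not named by the rule stated in the processing had mean signals of 219 to 919. Their injection changes lay between -0.09 and 0.22 and their experiment differences between -0.54 and 0.55. They include mrps15.L, mrps24.S and mrps34.S of the small subunit and mrpl44.S, mrpl23.S, mrpl37.L, mrpl11.S and mrpl12.L of the large one.

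Few of the other genes of mitochondrial gene expression were measured by the definition given above. Of 81 names listed for ribosomal subunits under other symbols, translation factors, mitochondrial aminoacyl-tRNA synthetases, assembly factors and the expression of mitochondrial DNA, 23 were measured. With the block 1 rose (4.35%) and 0 fell, beside 4.09% and 3.91% of all probe sets, and without it 0 passed. The 1 was tsfm.L, the elongation factor that recharges the mitochondrial factor Tu. Its signals were 250 and 279 in controls and 443 and 575 with xSGK1 morpholinos (log2 change 0.89 ± 0.16 SE, adjusted p = 0.0329 with the block and 0.999 without). Both xSGK1 arrays lay above both controls, as for mrps25.S and for 16.3% of all probe sets.

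The initiation factor gene mtif3.L gave 328 and 524 against 423 and 751 (0.43, adjusted p = 0.13 with the block). Of 5 synthetase and amidotransferase genes, pars2.L had the largest injection value, with 705 and 452 against 486 and 280 (-0.59, adjusted p = 0.0697). Of 8 assembly genes it was the GTPase gene gtpbp10.S, with 57.5 and 144 against 83.8 and 296 (0.70, adjusted p = 0.0966). None of these 3 passed for the injection.

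Of 7 genes for expression of mitochondrial DNA, c1qbp.S had the largest injection value (0.57, adjusted p = 0.0886), which did not pass. Between the experiments 7 of the 23 rose and 3 fell, beside 20.9% and 19.9% of all probe sets. The mitochondrial RNA polymerase gene polrmt.L rose most, from 191 and 232 to 849 and 880 (log2 difference 1.96, adjusted p = 0.00183). The rRNA methyltransferase gene tfb1m.L fell by 0.89, from 375 and 472 to 224 and 217. Both were named after their values were seen.

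Of transcription factors known to act on genes for mitochondrial proteins in mammals, 7 gene copies were measured and 0 passed for the injection. The gene nrf1.S, a regulator of nuclear genes for mitochondria, gave 297 and 441 in controls and 399 and 732 with xSGK1 morpholinos (0.56, adjusted p = 0.0886 with the block). Its difference between experiments was 0.70 and passed. The gene myc.L gave 1860 and 921 against 1446 and 575 (-0.51, adjusted p = 0.0808), and it fell by 1.15 between the experiments. Its other copy, myc.S, gave 1215 and 505 against 832 and 623. That copy was lower with xSGK1 morpholinos in experiment 1 and higher in experiment 2 (-0.12, limma adjusted p = 0.747 with the block).

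Set beside the other gene families, the cytosolic ribosomal protein genes were mostly lower with xSGK1 morpholinos. Of 69 such genes 66 were lower with xSGK1 morpholinos in both experiments and 0 higher, beside 31.9% and 40.7% of all probe sets. Their median was -0.30 (-0.26 to -0.37 over the other scalings). With the block 6 fell and 0 rose, beside 3.91% and 4.09% of all probe sets. Between experiments 50 fell and 0 rose, beside 19.9% and 20.9% of all probe sets. The median was -0.52, on the same side of 0 as that of the mitochondrial ribosomal genes (-0.19). The 60 genes of the respiratory chain and ATP synthase, whose core subunits the mitochondrial ribosome makes, had a median injection change of 0.13. It was 0.13 and 0.14 in the 2 experiments. With the block 4 of the 60 rose and 1 fell, beside 4.09% and 3.91% of all probe sets. Their median between experiments was 0.05, with 7 rises and 12 falls, beside 20.9% and 19.9% of all probe sets. These groups were compared by counts and medians, with no test between them.

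**Figure D4:**
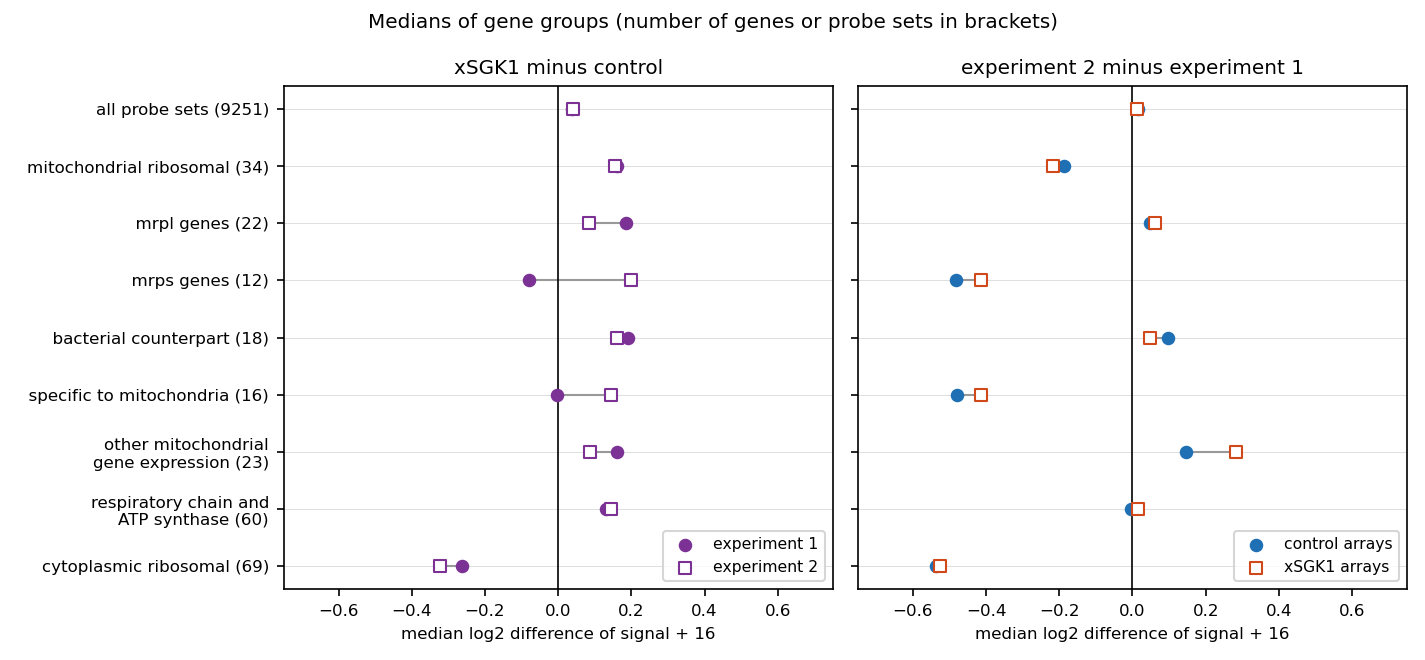
Median log2 difference of signal + 16 for gene groups (rows, with the number of genes or probe sets), between injections in each experiment on the left and between experiments for each injection on the right. The mitochondrial ribosomal genes sit at 0.16 in both experiments on the left, near the respiratory chain genes, and the cytosolic ribosomal genes at negative values in both panels.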

How the data were processed

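Total RNA (100 ng per sample) went through 2-cycle labelling and onto Affymetrix Xenopus laevis genome arrays. The authors deposited 1 linear signal intensity per probe set and array; the submitters' processing notes name MAS5 and GCOS 1.4. Their 2% trimmed mean was about 500 on each array (500.05 to 500.06), so they had been scaled per array, and they were used as deposited. The log2 values of signal + 16 were computed here from the deposited intensities.

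Leaving out 120 control probe sets and any whose mean signal was under 100 kept 9251 of 15611. The platform annotation gave 1 symbol for 9304 of the 15611, several for 195 and none for 6112. All 34 members matched the RefSeq table of assembly Xenopus_laevis_v10.1 by gene identifier with the same symbol. Coordinates are left out, since the build behind the array is not given in the sources used here.

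Tests used limma 3.58.1 in R 4.3.3 (eBayes with an intensity trend), two-sided; the scripts were tested on simulated data. Replicate numbers were read as experiment numbers: the series text has both injections in each of 2 experiments, and the deviations of same-numbered arrays from their group means correlated (Pearson 0.838 across 9251 probe sets, minimum 0.1). Whether the 2 experiments used eggs of different females is not given in the sources used here, so p-values measure the spread between these arrays. With the block 1 residual degree of freedom remains, and p-values rest on variances moderated across probe sets. With 2 arrays against 2 and the pairing ignored, the smallest p of an exact permutation test is 0.333. Permuting within the experiments leaves fewer arrangements, so its smallest p is larger.

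The members, the gene lists and the tests were chosen with earlier results of these data known. Members named with values were those past the threshold for the injection, in each subunit the 6 with the largest injection change, the 4 brightest and the 4 with the largest experiment difference, those nearest the signal minimum, and any with opposite injection signs of at least 0.5 (log2) in the 2 experiments or with both genome copies measured, of which there were 0; from other lists, genes past the threshold and up to 3 per list by size of change. Kinase genes and other relatives that share the prefix of the cytosolic ribosomal proteins were left out of that family. Other settings tried were the block, different offsets, filters, normalizations, eBayes options and probe rules, and leaving out each array; promoters and proteins were not analysed here. Figures were drawn with matplotlib 3.10.9.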

Additional observations from a re-analysis of the deposited data

How the results depend on the processing

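The rise of mrps25.S had the same direction under all 24 alternatives run for it, and it passed in the 10 of them that held the replicate block and in none without it. Both xSGK1 arrays lay above both controls, so the block, offsets, filters, eBayes options or leaving out 1 array could not reverse this direction. Only the normalizations could have done so. The blocked fit called 1 member, the same mrps25.S, under each setting tried, with 740 probe sets called over all. That total was 524 with quantile normalization, 824 and 1136 with offsets of 1 and 64, 741 and 490 with filters of 50 and 300, 1531 with cyclic loess normalization, 1175 with median scaling, 543 without the intensity trend and 705 with the robust fit; these combinations with the block, except quantile, were chosen after seeing the data. Without the block and with 1 array left out, 0 to 110 probe sets and 0 members were called, the 110 without the xSGK1 array of experiment 1. Without the injection term the experiment fit called 58 probe sets and 0 members, against 3776 and 15 with it.

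The median injection change of 0.116 was 0.122 and 0.1005 with offsets of 1 and 64, 0.0747, 0.204 and 0.0943 with filters of 50, 300 and none, 0.0893, 0.0775 and 0.0476 with quantile, cyclic loess and median scaling, and 0.0943 with all probe sets. With 1 array left out of the fit without the block it ran from 0.0553 to 0.252. That of the mrpl genes then ran from 0.165 to 0.268 and that of the mrps genes from -0.191 to 0.34. In such a fit the experiments are unequally represented in the 2 injections, so part of the experiment difference enters these values. Within the experiments the mrps median was -0.08 and 0.20, so its value has no settled direction. The median experiment difference of -0.189 was -0.135 and -0.129 with a filter of 50 and none, -0.215 with quantile normalization and -0.243 without cross-hybridising suffixes, and -0.216 to -0.186 with 1 array left out. For the mrpl genes (0.107) it was 0.117 and 0.0847 with the 2 offsets, 0.082 with a filter of 300, 0.0893, 0.0465 and 0.0895 with quantile, cyclic loess and median scaling, 0.0646 with mrps30 and mrps18a added, and 0.0486 to 0.0613 with 1 array left out. For the mrps genes (-0.445) it was -0.388 with an offset of 64, -0.387, -0.501 and -0.329 with filters of 50, 300 and none, -0.500 with cyclic loess and -0.483 to -0.415 with 1 array left out. With 1 array left out, the experiment difference is that within the injection whose arrays both remain. Those left-out values are thus the medians within each injection and no separate check. The cause of the shifts was not tested.

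Of single genes, 2 changed sign under another scaling, mrpl21.L (-0.00896 with cyclic loess) and mrps26.L (-0.0164 with median scaling), the same values with the block. With 1 array left out the injection change ran across 0 for 15 of 26 named genes: mrpl16.S (-0.438 to 0.18), mrpl18.L (-0.0297 to 0.264), mrpl21.L (-0.0807 to 0.23), mrpl28.L (-0.0944 to 0.807), mrpl38.L (-0.411 to 0.981), mrpl39.L (-0.184 to 0.412), mrpl41.L (-0.745 to 0.55), mrpl48.S (-0.564 to 0.272), mrpl51.L (-0.757 to 0.362), mrpl9.S (-0.0345 to 0.533), mrps26.L (-0.342 to 0.448), mrps30.L (-0.451 to 0.301), mrps33.L (-0.696 to 0.378), mrps7.L (-0.599 to 0.148) and mrps9.L (-0.0606 to 0.528). For mrps25.S it stayed between 0.7 and 1.14. These values come from the fit without the block. With 1 array left out the experiments are unequally represented in the 2 injections, so part of the experiment difference enters the injection change. A range across 0 therefore does not show that the direction differed between the experiments. With 1 array left out, the blocked fit and the experiment fit have no residual degrees of freedom, so no calls could be made. For dim genes signal over background limits the precision.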
